A study of Mus musculus with 6 samples.

Results

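The mevalonate pathway turns acetyl-CoA into the isoprenoid units from which cholesterol, dolichol, ubiquinone and the lipid anchors of prenylated proteins are made. Adrenal cortex cells use cholesterol as the raw material of their steroid hormones, and take it up from lipoproteins as well as making it. The genes of the pathway are known as targets of the sterol-regulated transcription factor SREBP2, which is active when cell sterol is low.

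The genes described here are the enzymes from acetoacetyl-CoA to squalene, 9 in all: Acat2, Hmgcs1, Mvk, Pmvk, Mvd, Idi1, Fdps, Ggps1 and Fdft1. Every probe set that the platform annotation gives to 1 of these symbols was taken. This gave 7 of the 8251 named genes on the array, with 12 of the 12422 probe sets other than controls, and no probe set was matched to Acat2 or Pmvk. Of the 12 probe sets, 8 passed the filter on low signal, which left 7453 probe sets to test, and these 8 held at least 1 probe set of each of the 7 genes. The 4 dim ones, of Fdps, Mvk and Ggps1, are given by their signals.

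The samples were adrenal glands of chromogranin A (Chga) knockout mice on 3 arrays and of wild-type mice on 3 arrays, all males of 12 weeks, with total RNA labelled by biotin and 1 sample per array. Chga encodes a protein of the catecholamine storage granules of adrenal chromaffin cells. The labels cite the same publication for both genotypes, while background strain and deletion construct were not given in the labels. Each array was read as 1 animal, since the series describes 3 mice per genotype, and nothing states whether the RNA of 2 glands was joined.

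Values are MAS5 signals on a linear scale, with a median of 954 to 1079 on knockout arrays and 970 to 1093 on wild-type arrays. Chga read 1188, 858 and 951 on the knockout arrays, against 46719, 30213 and 35306 on the wild-type arrays, as the labels state. The cortex markers tested were bright in both genotypes, with a summed signal of 466333 to 532763 in knockout and 437489 to 534782 in wild-type arrays. Knockout arrays 2 and 3 stood apart from the others. They carried skeletal muscle transcripts, such as Acta1 at 32131 and 13869 against 565 on knockout array 1 and 29.1 to 180 on wild-type arrays. Their ratios of 3' to 5' Gapdh signal, a sign of RNA integrity, were 1.30 and 1.29, against 0.831 on knockout array 1 and 0.762 to 0.806 on wild-type arrays. For the 7 genes and for the enzymes after squalene, values are also given with knockout array 1 alone. In that fit, against all wild-type arrays, the spread comes from the 3 wild-type arrays only, and the lone array is assumed to vary as they do.

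The promoter table of RefSeq held windows for 7 of the 9 genes, with none listed for Fdps and Fdft1. The 250 bases before the annotated start are shown 5′ to 3′ for Hmgcs1, which fell in the knockout, for Idi1, which had a large lower value, and for Ggps1, the 1 gene tested whose signals lay higher. Capitals mark matches on either strand to TCACNCCAC, a form of the sterol regulatory element that SREBP binds, and to CCAAT and GGGCGG, the boxes bound by its usual partners NF-Y and Sp1. Matches to these motifs did not overlap one another. The windows are chr13:119690101-119690350 (plus strand) for Hmgcs1, chr13:8885356-8885605 (plus strand) for Idi1 and chr13:14063489-14063738 (minus strand) for Ggps1, all of GRCm38.p6.
Hmgcs1: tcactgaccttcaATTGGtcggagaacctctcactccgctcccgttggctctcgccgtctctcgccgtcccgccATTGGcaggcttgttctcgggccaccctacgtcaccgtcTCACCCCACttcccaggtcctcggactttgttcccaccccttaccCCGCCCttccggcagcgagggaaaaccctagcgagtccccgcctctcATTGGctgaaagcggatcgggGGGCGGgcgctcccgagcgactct
Idi1: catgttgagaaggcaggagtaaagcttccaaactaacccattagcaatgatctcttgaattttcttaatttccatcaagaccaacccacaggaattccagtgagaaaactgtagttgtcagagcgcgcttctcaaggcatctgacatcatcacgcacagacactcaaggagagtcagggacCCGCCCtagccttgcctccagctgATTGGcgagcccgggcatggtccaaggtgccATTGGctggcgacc
Ggps1: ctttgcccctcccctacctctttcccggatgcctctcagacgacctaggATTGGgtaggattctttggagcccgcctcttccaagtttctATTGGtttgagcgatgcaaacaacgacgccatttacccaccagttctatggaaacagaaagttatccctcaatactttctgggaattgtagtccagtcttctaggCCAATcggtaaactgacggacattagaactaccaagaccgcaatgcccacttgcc

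The TCACNCCAC motif was found in the Hmgcs1 window, 137 to 129 bases before the start, and in 0 of the other 7 windows of these genes. Over the whole table, 1.05% of 32851 windows of the same length held it. CCAAT was found in 6 of the 8 windows of these genes, against 33.8% of all windows, and GGGCGG in 5 of the 8, against 32.7% of all windows. The Hmgcs1 window held 3 CCAAT and 2 GGGCGG matches, the Idi1 window held 2 and 1, and the Ggps1 window held 3 and 0. Other forms of the sterol regulatory element were not searched for. A match is a run of letters and not a measured binding site.

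Transcripts of 2 enzymes of the pathway, Fdps and Hmgcs1, fell in the Chga knockout adrenal, and none rose. Of the 8 probe sets tested, 3 passed limma's test lower, at an adjusted p under 0.05 over all probe sets tested. Over all 7453 probe sets, 21 passed lower, or 0.282%. None of the 8 passed higher, as 0.161% of all probe sets did, and 0 were higher at an unadjusted p under 0.05. The other 5 genes had log2 changes between -2.18 for Idi1 and 0.42 for Ggps1 and did not pass. Taking the brightest probe set per gene, the median log2 change of the 7 genes was -0.90, beside -0.0026 over the 5663 named genes tested.

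**Figure D1:**
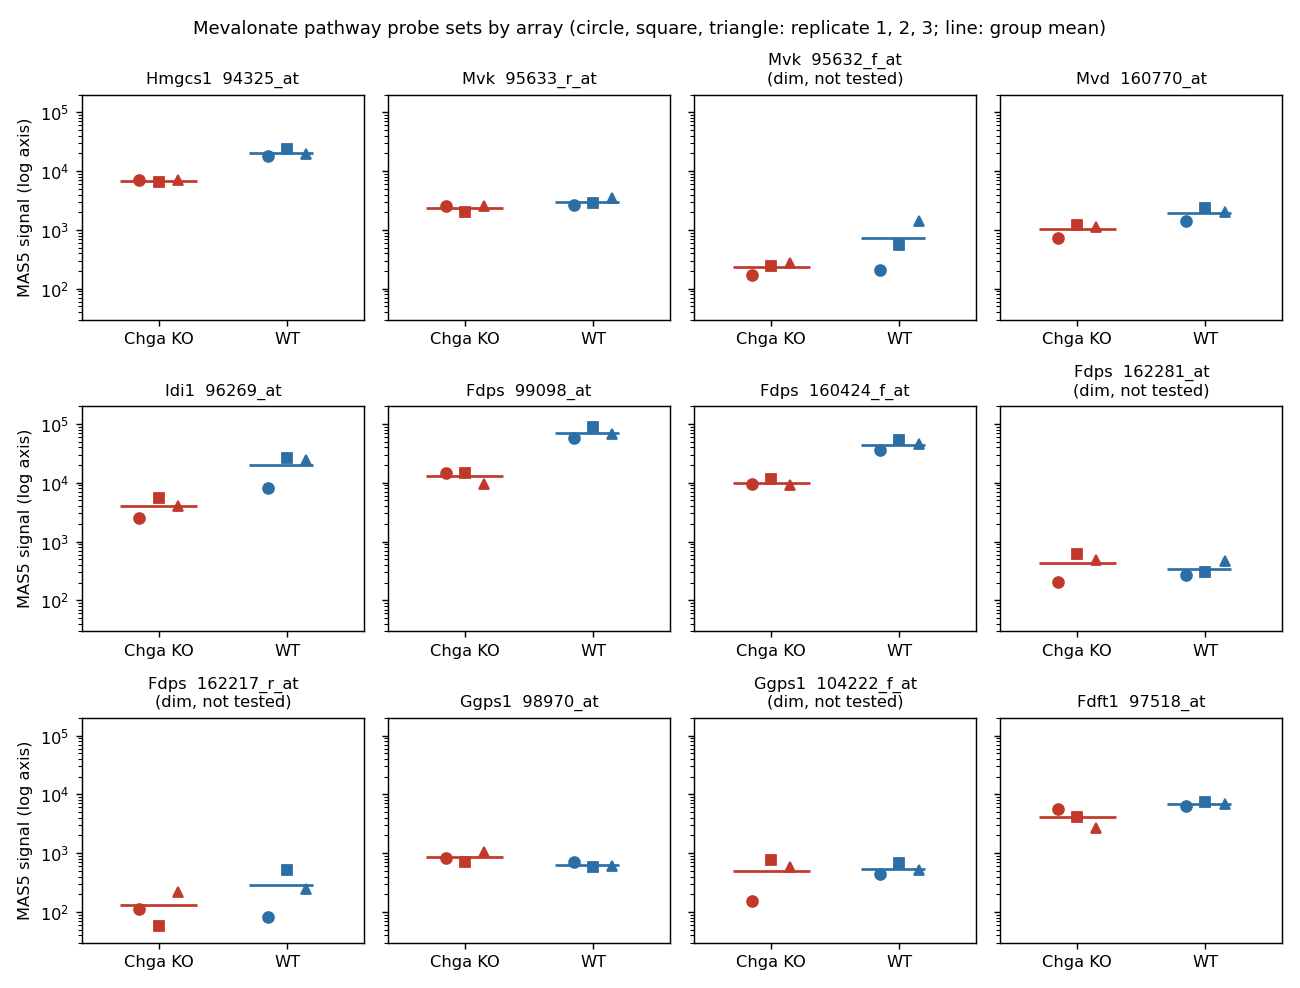
MAS5 signal (log axis) of all 12 probe sets of the pathway on each array, with Chga knockout on the left and wild type on the right of each panel, 1 point per array and a line at the group mean. Among probe sets tested, the 2 bright ones of Fdps and those of Hmgcs1 and Idi1 show the widest gaps between genotypes. The 4 dim probe sets overlap.

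Separation of the arrays went further than the test. In 7 of the 8 probe sets tested, all 3 knockout arrays lay below all 3 wild-type arrays, a pattern that 8.83% of all probe sets tested showed. The eighth, of Ggps1, had all 3 knockout arrays above all wild-type arrays, as 7.55% of all probe sets did. In each of the 4 dim probe sets the genotypes overlapped. The signals come from whole glands, in which fewer cells of a type and less RNA per cell cannot be told apart.

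Hmgcs1 encodes the cytosolic synthase that joins acetyl-CoA to acetoacetyl-CoA and so makes HMG-CoA at the head of the pathway. Its probe set read 6970, 6528 and 7072 on the knockout arrays, against 18024, 23897 and 19899.7 on the wild-type arrays. The 3 knockout values lay close together, and the highest of them was well under the lowest wild-type value. The fall was 2.98-fold (log2 change -1.58 ± 0.14 SE, 95% interval -1.89 to -1.26, limma adjusted p = 0.000991). It passed in each of the 6 fits that left out 1 array. With array 1 as the only knockout array the log2 change was -1.55 (adjusted p = 0.0820), and with the Gapdh 3' to 5' ratio as a covariate it was -1.52 (adjusted p = 0.0530), so that neither passed.

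Mvk, the kinase that phosphorylates mevalonate, had 2 probe sets. The brighter one read 2560, 2032 and 2556 on the knockout arrays, against 2625, 2831 and 3526 on the wild-type arrays. The groups did not overlap, but the nearest arrays differed by little. Its log2 change was -0.32 (95% interval -0.74 to 0.09, limma adjusted p = 0.532), and -0.21 with knockout array 1 alone. Its name ends in r_at, which marks a probe set designed with some selection rules dropped. The dim one, of the f_at kind that can bind several similar sequences, read 173, 247 and 274 on the knockout arrays, against 207, 554 and 1413 on the wild-type arrays. Its high value came from wild-type array 3. Fitted without the filter, its log2 change was -1.22 (95% interval -2.66 to 0.22).

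Mvd encodes the decarboxylase that makes isopentenyl diphosphate, the first isoprenoid unit. It read 732, 1230 and 1109 on the knockout arrays, against 1419, 2360 and 1995 on the wild-type arrays. Knockout array 1 was the lowest of the 6, and no arrays of the genotypes overlapped. The log2 change was -0.90 (95% interval -1.52 to -0.28), which did not pass (limma adjusted p = 0.291). With knockout array 1 alone it was -1.34 (adjusted p = 0.559).

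Idi1 encodes the isomerase that turns isopentenyl diphosphate into dimethylallyl diphosphate, so that chain growth can start. It read 2523, 5558 and 4029 on the knockout arrays, against 8069, 26524 and 24657 on the wild-type arrays. The wild-type arrays were split, with array 1 nearer to the knockout values than to the other two. The log2 change of -2.18 was as large as that of Fdps on 1 of its probe sets, but its standard error was 0.45 (95% interval -3.18 to -1.17, limma adjusted p = 0.113). Without wild-type array 1 the log2 change was -2.73 and passed (adjusted p = 0.00567). It was -2.78 with knockout array 1 alone (adjusted p = 0.388).

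Fdps encodes farnesyl diphosphate synthase, which builds the branch point metabolite from which sterols, dolichol, ubiquinone side chains and protein prenyl groups depart. Its brightest probe set read 14668.5, 14537.5 and 9506 on the knockout arrays, against 56499, 88589 and 67392 on the wild-type arrays. Its second, of the f_at kind, read 9381, 11547.5 and 9097 on the knockout arrays, against 36199.8, 52789 and 44810.2 on the wild-type arrays. Both showed the same wide gap. The brightest fell 5.49-fold (log2 change -2.46 ± 0.21 SE, 95% interval -2.94 to -1.98, limma adjusted p = 0.000861). The second fell 4.42-fold (log2 change -2.15 ± 0.17 SE, 95% interval -2.52 to -1.77, limma adjusted p = 0.000496).

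Over all probe sets tested, the 2 Fdps probe sets had ranks 5 and 9, counted from the lowest log2 change. With knockout array 1 alone, and thus with the spread of the wild-type arrays only, the log2 changes were -2.25 for the brightest (adjusted p = 0.0305) and -2.23 for the second (adjusted p = 0.0196). With the Gapdh ratio as a covariate the second passed (log2 change -2.22, adjusted p = 0.0170) and the brightest did not (log2 change -2.18, adjusted p = 0.0530). The dim Fdps probe sets did not follow. One read 206, 624 and 490.04 on the knockout arrays, against 272, 299 and 473 on the wild-type arrays. The other read 113, 57.0 and 221 on the knockout arrays, against 83.1, 519 and 249.6 on the wild-type arrays. Fitted without the filter, their log2 changes were 0.23 (95% interval -0.87 to 1.34) and -0.89 (95% interval -2.46 to 0.69). Signals this low lay at the 32.3 and 19.3 percentiles of all probe sets, and which part of the transcript each covers was not analysed here.

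**Figure D2:**
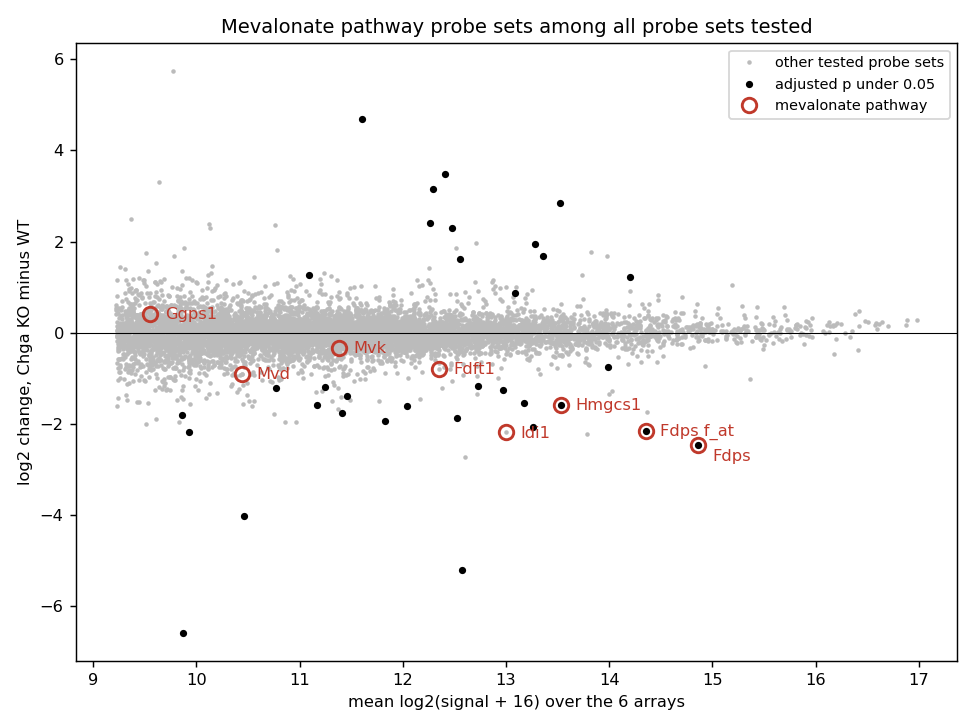
Log2 change, Chga knockout minus wild type, against mean log2(signal + 16) over the 6 arrays for all 7453 probe sets tested, with the 8 mevalonate pathway probe sets circled in red and probe sets past the test in black. Both Fdps probe sets and Hmgcs1 are bright and past the test, Idi1 is as low but not past it, and Ggps1 lies above 0 among the dim probe sets.

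Ggps1 and Fdft1 encode enzymes that use farnesyl diphosphate. Ggps1 makes geranylgeranyl diphosphate, the anchor of many small GTPases. Its brighter probe set read 840.5, 711 and 1034 on the knockout arrays, against 707, 592 and 610.03 on the wild-type arrays. The knockout values were higher, with knockout array 2 almost level with wild-type array 1. The log2 change was 0.42 (95% interval -0.20 to 1.03) and did not pass (limma adjusted p = 0.600). It was 0.40 with knockout array 1 alone. Its mean signal lay at the 44.1 percentile, just above the filter at the 40th. The dim f_at probe set read 157, 780.5 and 574 on the knockout arrays, against 451, 670 and 515 on the wild-type arrays, where the groups overlapped. Fitted without the filter, its log2 change was -0.35 (95% interval -1.62 to 0.91), of the other sign than the brighter one. Its mean signal lay at the 36.5 percentile.

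Fdft1 is squalene synthase, the first enzyme committed to sterols. It read 5676, 4095 and 2670 on the knockout arrays, against 6262, 7447 and 6992 on the wild-type arrays. Knockout array 1 lay near the lowest wild-type array, and knockout arrays 2 and 3 lay lower. The log2 change was -0.79 (95% interval -1.36 to -0.23) and did not pass (limma adjusted p = 0.313). It was -1.05 and passed without knockout array 1 (adjusted p = 0.0457), and -0.28 with knockout array 1 alone (adjusted p = 0.996). With the Gapdh ratio as a covariate it was -0.19 (adjusted p = 0.998). The lower Fdft1 signals were on the arrays with muscle transcripts and high 3' to 5' ratios, whose part in the result was not tested.

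**Figure D3:**
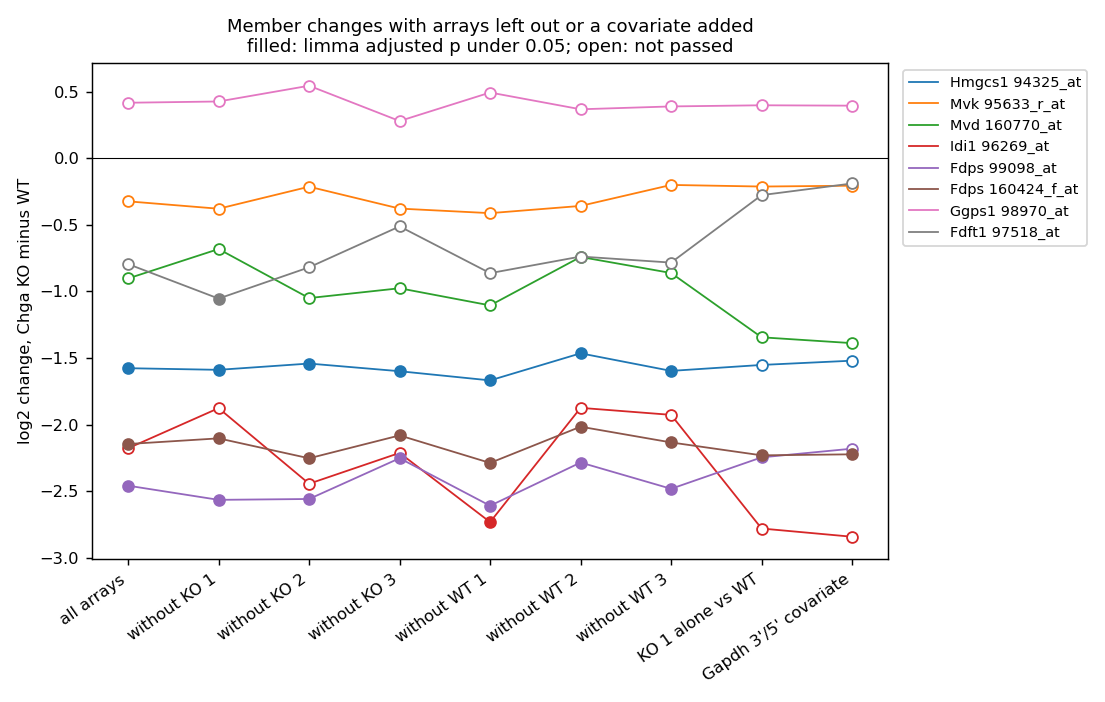
Log2 change, Chga knockout minus wild type, of the 8 probe sets tested with all arrays, with each array left out, with array 1 as the only knockout array and with the Gapdh 3' to 5' ratio as a covariate, where filled points passed limma's adjusted p. Hmgcs1 stays between -1.67 and -1.46, while Fdft1 lies between -1.05 and -0.19 and Idi1 between -2.84 and -1.87.

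Ordered by log2 change on the brightest probe set with all arrays, the genes ran Fdps, Idi1, Hmgcs1, Mvd, Fdft1, Mvk and Ggps1, from lowest to highest. Fdps and Idi1 changed places on the second Fdps probe set (-2.15 against -2.18 for Idi1). They also did so without wild-type array 1, with knockout array 1 alone and with the Gapdh covariate. Mvd and Fdft1 changed places without knockout array 1 and with array weights, and Fdft1 and Mvk did so with the Gapdh covariate. The 95% intervals of Fdps and Idi1 overlapped, as did those of Idi1 and Hmgcs1, of Hmgcs1 and Mvd, of Mvd and Fdft1, of Fdft1 and Mvk and of Mvk and Ggps1. The interval of the brightest Fdps probe set did not reach those of Hmgcs1, Mvd, Fdft1, Mvk or Ggps1, while that of the second overlapped the interval of Hmgcs1. The order did not follow the order of steps on these probe sets, since Hmgcs1, Idi1 and Fdps had the lowest values. The kinase Mvk, between Hmgcs1 and Idi1 in the pathway, had -0.32 (95% interval -0.74 to 0.09).

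Ratios within an array compare the change of 2 enzymes without the scale of the array. Only their difference between genotypes is read, since each probe set has its own brightness. The log2 ratio of Fdps over Ggps1 was 4.10, 4.32 and 3.18 on the knockout arrays, against 6.29, 7.19 and 6.75 on the wild-type arrays. The mean difference was -2.87. Fdps over Fdft1 was 1.37, 1.82 and 1.83 on the knockout arrays, against 3.17, 3.57 and 3.27 on the wild-type arrays, a difference of -1.66. Fdft1 over Ggps1 was 2.73, 2.50 and 1.36 on the knockout arrays, against 3.12, 3.62 and 3.48 on the wild-type arrays, a difference of -1.21. None of the 3 ratios overlapped between genotypes. Each gave p = 0.1 in a two-sided exact permutation test (n = 3 each), also after Benjamini-Hochberg adjustment over the 3 tests, which is the smallest p that 3 arrays against 3 allow. With knockout array 1 alone the differences were -2.64 for Fdps over Ggps1, -1.97 for Fdps over Fdft1 and -0.67 for Fdft1 over Ggps1.

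**Figure D4:**
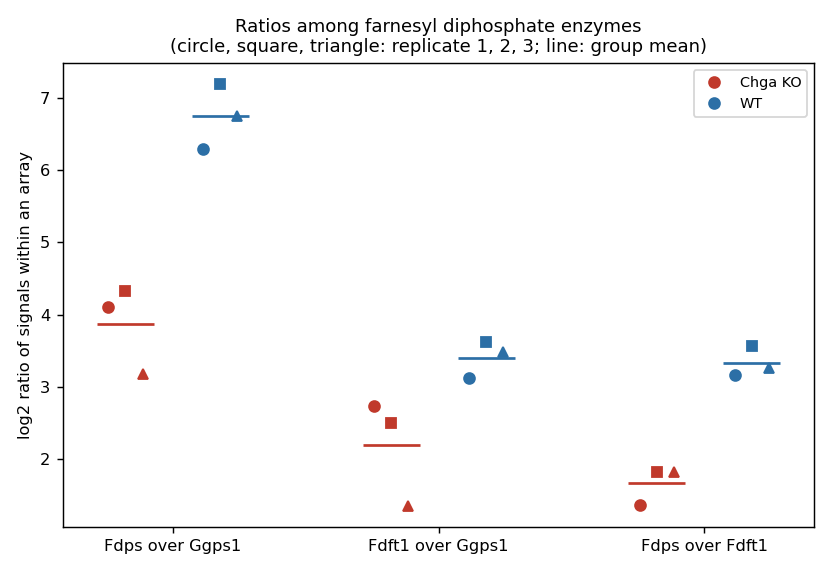
Log2 ratio of signals within each array for 3 pairs of enzymes that make or use farnesyl diphosphate, with Chga knockout left of wild type, 1 point per array and a line at the group mean. In each pair the 3 knockout arrays lie below the 3 wild-type arrays, with the widest gap for Fdps over Ggps1.

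Wild-type arrays differed among themselves on these genes too, and with 1 array per animal the mouse and the array cannot be told apart. On the brightest probe set per gene, wild-type array 1 was the lowest of the 3 wild-type arrays for 6 of the 7 genes, and the highest for Ggps1. Wild-type array 2 was the highest for 5 of the 7. Among wild-type arrays, the median signal was also lowest on array 1 (970) and highest on array 2 (1093). How often other genes showed this order was not counted. Relative to its mean, Idi1 spread most of the 7 in wild type, with 19750 ± 10159 (SD, n = 3) in wild type, beside 4036 ± 1518 (SD, n = 3) in knockout arrays. Wild-type array 1 also had the lowest summed adipocyte marker signal, 36584, against 56377 and 64939 on the other wild-type arrays and 45697 to 74429 on knockout arrays. The part of fat in these values was not tested.

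The signal of Fdps followed Hmgcs1 most closely among the other genes of the pathway. Over the 6 arrays, Pearson's r of log2 signal with the brightest Fdps probe set was 0.981 for Hmgcs1, 0.888 for Idi1, 0.869 for Fdft1, 0.836 for Mvd, 0.650 for Mvk and -0.872 for Ggps1. These values describe 6 arrays in 2 groups, and the points share the difference between genotypes. Among 5656 other named genes, the 10 of highest r were Fkbpl (0.992), Msmo1 (0.987), Ssbp1 (0.986), Mrpl12 (0.985), Frrs1 (0.983), Dusp6 (0.981), Kpna2 (0.980), Thap7 (0.979), H2-Ke6 (0.979) and Actl6a (0.978). Of these 10, 1 was a sterol enzyme, Msmo1, which oxidises the methyl groups of sterols after squalene. Among the 5656 genes there were 10 tested enzymes of the steps after squalene.

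Enzymes after squalene were lower too. Of 11 genes listed for these steps, 10 were tested, 6 fell, 0 rose and 4 did not pass, with a median log2 change of -1.55, beside 12 lower of 5663 named genes. The count was 2 to 7 with 1 array left out: 3 without knockout array 2, 2 without knockout array 3, 2 without wild-type array 2 and 3 without wild-type array 3. With knockout array 1 alone, 0 of the 10 passed in limma, at a median of -1.55, and with the Gapdh ratio as a covariate 0 passed, at a median of -1.46. Whether the 2 stretches of the pathway differ was not tested. Sqle, which opens this stretch by oxidising squalene, had 3083 in knockout and 11535 in wild-type arrays on average (log2 change -1.87, limma adjusted p = 0.0043). Cyp51, the lanosterol demethylase, had a log2 change of -1.57, Msmo1 one of -1.53 and Nsdhl, a sterol dehydrogenase, one of -1.60. Hsd17b7, a sterol ketone reductase, had a log2 change of -2.17 (limma adjusted p = 0.0329), and Dhcr7, the last reductase of the pathway, had one of -0.76 (limma adjusted p = 0.0486). Without the filter on low signal neither passed (adjusted p = 0.0694 and 0.0792), which left 4 calls.

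**Figure D5:**
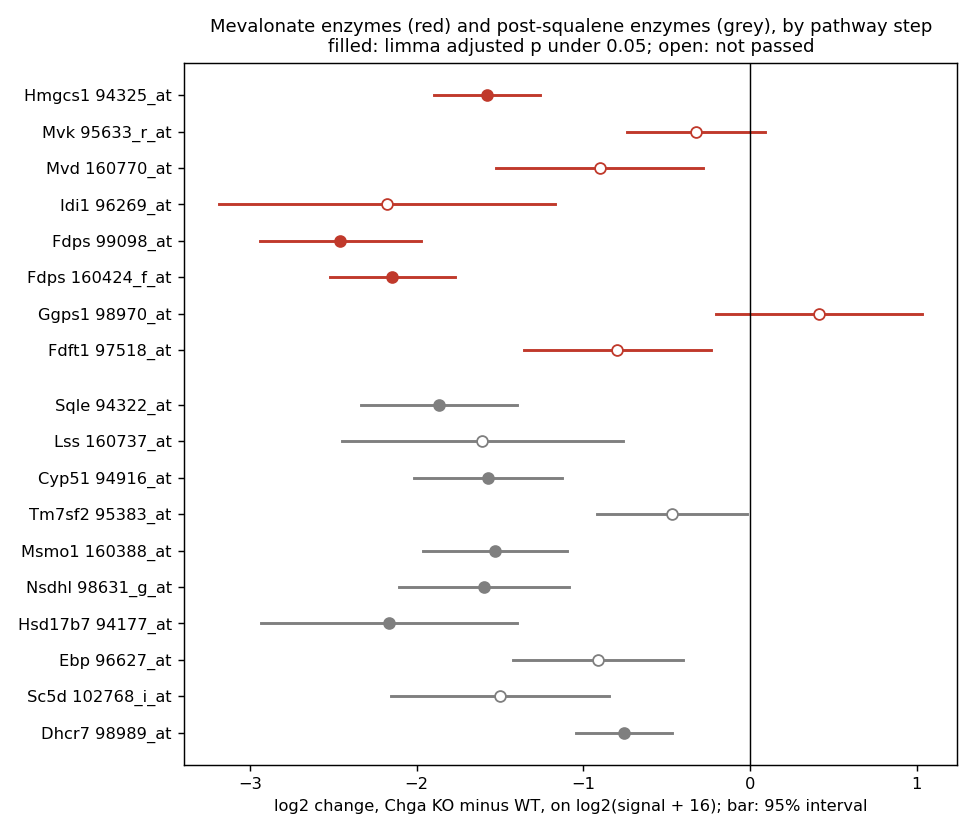
Log2 change, Chga knockout minus wild type, on the log2(signal + 16) scale with 95% intervals, for the 8 mevalonate probe sets tested (red) and 10 post-squalene enzymes (grey) from early to late steps. Filled points passed limma's adjusted p, which 3 of the red and 6 of the grey points did.

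None of the tested genes that feed, steer or use the pathway passed. Of 7 genes of the SREBP machinery, 2 were tested: the transcription factor gene Srebf1 had a log2 change of 0.33 (limma adjusted p = 0.560) and the protease gene Mbtps1 one of 0.02 (adjusted p = 0.975). Insig1, the sterol-sensitive anchor of SREBP, was too dim to test, at 26.4, 18.9 and 139 on the knockout arrays, against 26.8, 57.0 and 13.8 on the wild-type arrays. Of 14 genes that use the isoprenoid products, 5 were tested. In limma 0 passed, also at an unadjusted p under 0.05, and the median log2 change was -0.0094. Among these, Rabggta, a subunit of the enzyme that prenylates Rab GTPases, had the widest value, -0.88 (adjusted p = 0.541), and Fnta, the subunit shared by farnesyl and geranylgeranyl transferases, had one of 0.02. Of 7 genes around acetyl-CoA and ketone bodies, 2 were tested and 0 passed in limma, also unadjusted: Acly, which makes cytosolic acetyl-CoA, had a log2 change of -0.25 and Oxct1, which breaks down ketone bodies, one of -0.17.

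Levels of other cell types beside these results were as follows. The 7 cortex markers tested had log2 changes between -0.13 (Star) and 0.24 (Cyp21a1), and in limma 0 passed, also at an unadjusted p under 0.05. The summed signal of the 5 chromaffin markers on the array was 172389 to 186605 in knockout and 142657 to 156611 in wild-type arrays, with no overlap. Chgb, the brightest of the 5, read 93585, 120199 and 98209 on the knockout arrays, against 69305, 77123 and 76132.5 on the wild-type arrays. Gata2, much dimmer, was also higher on all knockout arrays. Th, Ddc and Pnmt overlapped between genotypes, and Pnmt had a log2 change of -0.23. Sums of the 12 muscle markers were 10934, 90519.5 and 46499.8 on knockout arrays 1 to 3 and 10866 to 11527 in wild type. Sums of the 10 macrophage markers were 20179.5 to 34772 in knockout and 16712 to 20393 in wild-type arrays, and those of the 7 liver markers were 16730.4 to 36523 in knockout and 13211 to 35202 in wild-type arrays. The adipocyte sums overlapped between genotypes. No marker of any of these lists passed limma's adjusted test. At an unadjusted p under 0.05 in limma there were 4 of 8 muscle markers tested (list median 0.98) and 3 of 8 macrophage markers (median 0.70, all 8 above 0). There were also 2 of 5 chromaffin markers (median 0.27), 1 of 7 adipocyte markers and 0 of 3 liver markers. Over all named genes tested, 608 of 5663 were under 0.05. The adipocyte marker was Cidec (log2 change 0.93), with all knockout arrays above all wild-type arrays, as in 446 of the 5663 named genes. None of the marker sums was at 0. Their part in the lower mevalonate transcripts was not tested. On knockout array 1 the muscle and macrophage sums lay within the wild-type range. The chromaffin sum there, 174105, of which Chgb gave 93585, lay above it.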

How the data were processed

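The deposited values are linear intensity signals, 1 per probe set and array, which the authors deposited. The submitters' processing notes name MAS5, without version or scaling target, and detection calls were not analysed here. Trimmed means were 2501 on all 6 arrays, so the signals were not normalized again. Of 12488 probe sets, 66 controls were left out. Symbols came from the platform annotation, updated by Entrez identifier with RefSeq (GRCm38.p6), whose promoter windows were matched by symbol. Values were taken as log2(signal + 16), and probe sets under the 40th percentile of mean log2 signal (a signal of about 582) were not tested. Tests between genotypes used limma 3.58.1 under R 4.3.3 (eBayes with trend, Benjamini-Hochberg over all probe sets tested, threshold 0.05, n = 3 arrays each, checked on simulated data). Errors of log2 changes are standard errors. The scale understates changes of dim genes. The number of arrays limits the precision.

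The members, lists, motifs and alternatives were chosen with earlier results of these data known. Named were all members, Chga, up to 4 genes of smallest p and all genes past the threshold in each list, and the 10 genes most like Fdps. Others named (Mbtps1, Fnta, Insig1, Acta1, Cyp21a1) were chosen after their values were seen. Same-numbered arrays were checked for pairing by the correlation of their deviations from group means, which was 0.26, -0.04 and -0.04. Arrays of different numbers had -0.18 to 0.25. The numbers were not taken as pairs, although 3 arrays per group cannot exclude pairing.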

Additional observations from a re-analysis of the deposited data

How the results depend on the processing

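Of the 8 probe sets tested, none changed direction under any alternative run: pseudocounts of 1 and 64, no filter or a filter at the 60th percentile (which leaves out Mvd and Ggps1), quantile, cyclic loess and median scaling, other eBayes settings, array weights, the replicate block, the Gapdh covariate, each array left out, and knockout array 1 alone. The count of lower probe sets was 3 and ranged from 3 to 4 with 1 array left out. It was 1 with the Gapdh 3' to 5' ratio as a covariate and 2 with knockout array 1 alone; the ratio differs between genotypes and the single array leaves fewer samples. The count of higher probe sets was 0 throughout. With the replicate number as a block the count was 4, since Idi1 passed (log2 change -2.18, limma adjusted p = 0.00162). No label states that the numbers pair the arrays. Over all probe sets 57 passed with the replicate block and 33 without. All-probe-set counts also moved to 17 without a trend, 12 with the covariate, 13 with knockout array 1 alone, 141 without knockout array 1, and 15, 17 and 21 without knockout array 3, wild-type array 2 and wild-type array 3. The count of lower post-squalene genes, 6, was followed through the same alternatives after seeing the data: it was 2 to 7 with 1 array left out, 2 without a trend, and 0 with the covariate and with knockout array 1 alone. With knockout array 1 alone, the differences in log2 ratio were -0.67 for Fdft1 over Ggps1 and -1.97 for Fdps over Fdft1; the cause was not tested. Of the 8 probe sets tested, that of Idi1 had the largest standard error, 0.45, while Mvd and Ggps1, nearer the filter, had 0.27 each.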
